A study of Homo sapiens with 12 samples.

Results

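The replication-dependent histone genes are the family that supplies new histone protein while DNA is copied. They were taken as every gene whose symbol in the array annotation is H1-1 to H1-6 or begins with H2AC, H2BC, H3C or H4C followed by a number, in probe sets with exactly 1 gene symbol. This gave 56 of the 18404 genes measured: 6 linker histone H1 genes, 14 H2A genes, 16 H2B genes, 8 H3 genes and 12 H4 genes. By RefSeq, 49 lie on chromosome 6, 6 on chromosome 1 and 1 on chromosome 12. A further 13 genes of the same naming were represented only in probe sets shared between several genes, and these are described separately. This rule uses gene symbols alone, but the family was chosen with earlier results of these data known.

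The study measured 10-day-old spheroids, which are cell aggregates grown in stirred flasks, of the line HepG2, which derives from a human hepatocellular carcinoma. The 12 Affymetrix arrays form 3 groups of 4: wild type cells, cells with a knockdown of HIF-1α, and cells with a knockdown of HIF-2α. The oxygen-regulated subunits HIF-1α and HIF-2α are encoded by HIF1A and EPAS1. Each array of a group comes from its own spheroid experiment, and total RNA was amplified with a NuGEN kit that the protocol describes for 250 microdissected cells. All groups share the cell line, the age and the medium. The descriptions of the knockdown arrays carry the prefix sh, as short hairpin RNA does, and say no more of how the knockdowns were made. The sources used here do not say whether each knockdown was 1 clone or a pool, or whether wild type cells carried a control construct. How the amplification was primed is not given either.

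A nucleosome is DNA wound on a core of histones H2A, H2B, H3 and H4, and histone H1 binds the linker DNA between cores. Most genes of this family are transcribed in S phase under the coactivator NPAT. Most of their mRNAs end in a conserved stem-loop, bound by the protein SLBP, in place of a poly(A) tail. Some of the genes, among them H2BC12 and H2BC21, are known to give polyadenylated mRNA as well, which can persist in cells that have left the cycle.

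Of the 56 genes, H2BC12 stood out in these arrays. Its signal was higher in the HIF-1α knockdown than in wild type and lower in the HIF-2α knockdown than in the HIF-1α knockdown. H2BC3 and H2BC10 were higher in the HIF-2α than in the HIF-1α knockdown. These differences also passed the test, but not when most single arrays were left out. No other member passed in any comparison.

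Values are the authors' log2 values, with n = 4 arrays per group throughout. The median of an array over all probe sets lay between 7.29 and 7.41. A raised floor marked 3 arrays, wild type replicates 1 and 2 and replicate 4 of the HIF-2α knockdown: their 0.1 percentiles were 6.33 to 6.35, against 6.11 to 6.23 elsewhere. On the first principal component over genes, which held 24.3% of the variance, HIF-2α knockdown replicate 2 lay at 25.3 and the other arrays between -11.8 and 3.26. HIF1A lay between 10.62 and 10.79 in wild type and between 9.25 and 9.64 in the HIF-1α knockdown (log2 difference -1.23, SE 0.15, adjusted p = 0.0024, limma). EPAS1 lay between 10.83 and 11.26 in wild type and between 9.67 and 10.02 in the HIF-2α knockdown (-1.12, SE 0.094, adjusted p = 0.00021). When the raised-floor arrays were left out, HIF1A differed by -1.24 (adjusted p = 0.103). The 7 hepatocyte markers measured were bright, with means of 10.96 to 13.70, and none passed the test in any comparison. In the order of comparisons below, 5, 0 and 3 of 7 had an unadjusted p under 0.05. The shares of all genes were 13.2%, 12% and 13.6%. At or below the median gene were 4 of 6 macrophage and leukocyte markers, 4 of 5 endothelial markers and 4 of 4 fibroblast markers. Among these, CD14 was lower in the HIF-2α than in the HIF-1α knockdown (-0.39, adjusted p = 0.0090), and PDGFRB was lower there (-0.35, adjusted p = 0.011) and against wild type (-0.40, adjusted p = 0.011).

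The upstream sequences of 5 members are shown because the values below turn on these genes. H2BC12, H2BC3 and H2BC10 are the members that passed a test, H2BC14 is the brightest H2B probe set and H1-4 the brightest of all. Each line is the 250 bases before the RefSeq start site (GRCh38.p14), 5′ to 3′ on the gene's strand, in lower case. Capitals mark the octamer ATTTGCAT, the element bound by the factor POU2F1 in H2B promoters, and the CCAAT box (CCAAT, or ATTGG on the other strand). The H2BC12 window (chr6:27146859-27147108, minus strand) is 1 of 2 that the table holds for this gene. The others are H2BC3 (chr6:26043714-26043963, minus strand), H2BC10 (chr6:26272681-26272930, plus strand), H2BC14 (chr6:27814772-27815021, plus strand) and H1-4 (chr6:26156079-26156328, plus strand).
H2BC12: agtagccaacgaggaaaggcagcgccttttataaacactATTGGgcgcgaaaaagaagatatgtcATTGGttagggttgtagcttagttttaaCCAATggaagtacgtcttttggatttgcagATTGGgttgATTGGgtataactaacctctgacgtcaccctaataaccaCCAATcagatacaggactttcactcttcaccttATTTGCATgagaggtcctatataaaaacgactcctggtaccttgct
H2BC3: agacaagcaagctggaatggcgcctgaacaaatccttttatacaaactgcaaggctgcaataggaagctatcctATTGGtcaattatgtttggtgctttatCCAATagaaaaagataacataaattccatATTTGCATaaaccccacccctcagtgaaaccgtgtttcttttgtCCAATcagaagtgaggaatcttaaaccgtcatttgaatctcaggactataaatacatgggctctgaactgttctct
H2BC10: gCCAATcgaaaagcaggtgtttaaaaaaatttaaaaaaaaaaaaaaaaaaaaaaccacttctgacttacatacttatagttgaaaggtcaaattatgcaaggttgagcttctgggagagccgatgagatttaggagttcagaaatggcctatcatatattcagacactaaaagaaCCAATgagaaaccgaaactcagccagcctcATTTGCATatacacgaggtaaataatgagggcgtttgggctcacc
H2BC14: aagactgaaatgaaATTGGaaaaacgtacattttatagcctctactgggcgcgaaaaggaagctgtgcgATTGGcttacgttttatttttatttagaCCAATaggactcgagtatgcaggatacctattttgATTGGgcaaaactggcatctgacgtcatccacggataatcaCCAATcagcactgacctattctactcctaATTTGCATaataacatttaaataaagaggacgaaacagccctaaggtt
H1-4: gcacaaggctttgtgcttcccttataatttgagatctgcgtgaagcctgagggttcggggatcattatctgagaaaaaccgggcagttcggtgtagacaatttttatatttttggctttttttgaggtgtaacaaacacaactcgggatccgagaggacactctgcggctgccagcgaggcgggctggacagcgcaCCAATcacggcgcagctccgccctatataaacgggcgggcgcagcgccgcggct
All 4 H2B windows hold 1 octamer. It begins 46 bases before the start site in H2BC12, 45 in H2BC10, 48 in H2BC14 and 120 in H2BC3, and H1-4 has none. A CCAAT box in the forward direction begins 79, 76, 75 and 77 bases before the start of H2BC12, H2BC3, H2BC10 and H2BC14, and 54 bases before that of H1-4. The same letters stand upstream of H2BC12, which differed between the groups, and of H2BC14, which did not pass a test.

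Windows were found for 51 of the 56 members. H2AC12, H3C11, H3C12, H4C1 and H4C3 had none in the table. ATTTGCAT, searched on both strands (ATGCAAAT on the other), was present in 10 of 13 H2A and 13 of 16 H2B windows and in 0 of the 6 H1, 6 H3 and 10 H4 windows, against 1.63% of all 35116 windows. CCAAT was present in all 6 H1, 13 H2A, 16 H2B and 6 H3 windows but in 3 of 10 H4 windows, against 32% of all windows. The letters TATAAA were present in 34 of 51 member windows, against 10.7% of all. ACGTG, the core of the hypoxia response element (CACGT on the other strand), was present in 3 of 13 H2A and 2 of 16 H2B windows and in 0 of the H1, H3 and H4 windows, against 18.5% of all. None of the 5 windows shown holds ACGTG. The windows of H2A and H2B genes on opposite strands with start sites under 250 bases apart are largely the same DNA. H2AC11 and H2BC11, 248 bases apart, both hold ATTTGCAT and ACGTG. A match can thus count for both genes of a pair, and the H2A and H2B counts are not separate. These are matches of letters and say nothing of binding.

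The members spanned nearly the whole range of the array. Over the 12 arrays, 28 lay above the median gene (7.69) and 28 at or below it. H1-4 (13.66), H2BC14 (12.90), H3C2 (12.69) and H4C3 (12.23) had means over 12, as did 1.2% of all genes, and 25 members lay under 7.5, as did 45.1% of all genes. Above the median gene were 3 of 6 H1, 8 of 14 H2A, 9 of 16 H2B, 3 of 8 H3 and 5 of 12 H4 genes. A probe set's brightness also depends on its probes, so the order of different genes is not an order of transcript amounts. The dimmest of each type were H1-6 (6.70) and H2BC1 (6.60), both known as testis histones, H2AC13 (6.45), H3C8 (6.86) and H4C7 (6.61), a divergent H4. Values this low may hold no signal at all, and the differences below are therefore given for all members and again for the 28 above the median gene.

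**Figure D1:**
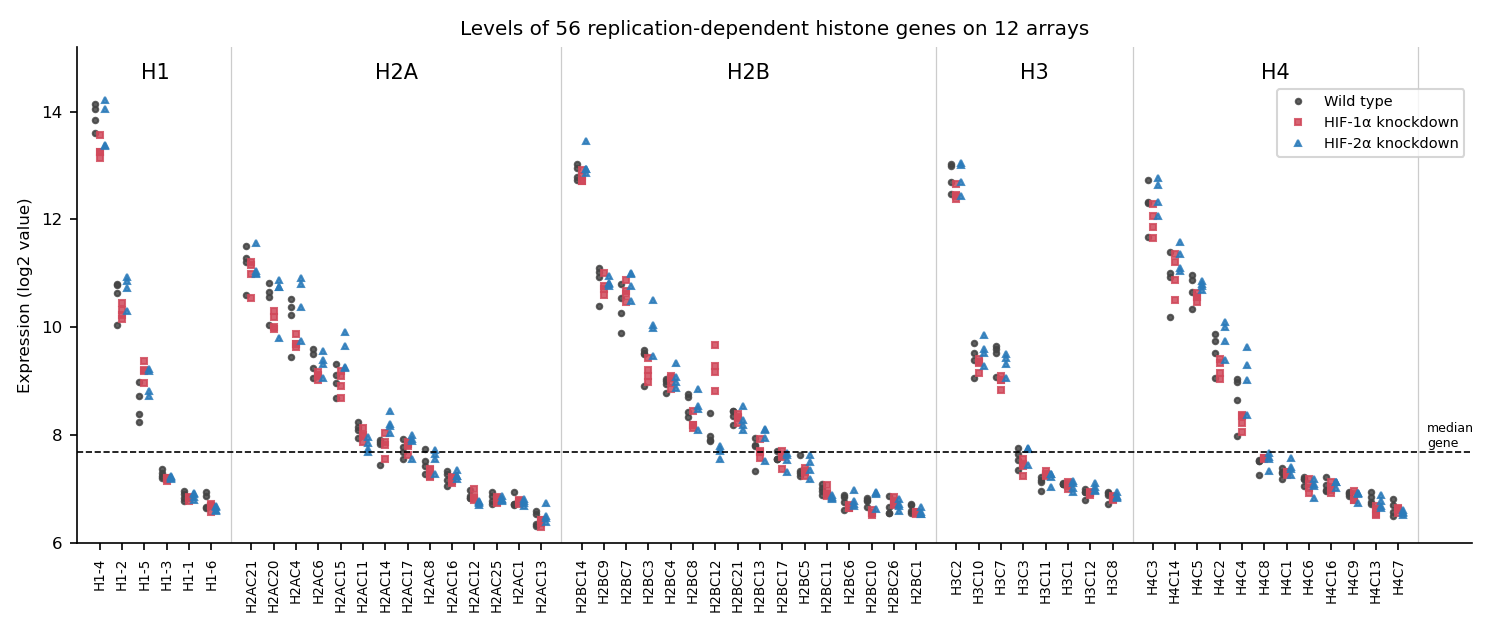
Log2 expression of the 56 histone genes on the 12 arrays, grouped by histone type and ordered by mean, with 1 point per array and the groups by symbol. The dashed line is the median gene (7.69), with 28 members above it, and the 4 HIF-1α knockdown points of H2BC12 stand above those of the other groups.

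The first comparison, HIF-1α knockdown against wild type, asks which histone genes differ when HIF-1α is reduced. H2BC12 rose 2.27-fold, while most of the other members lay slightly lower without passing the test. In limma's fit over all genes, 177 of 18404 genes passed (0.962%), 150 higher (0.815%) and 27 lower (0.147%). Of the 56 histone genes 1 passed, which was H2BC12. The groups did not overlap for 7 members, or 12.5%, against 7.84% of all genes: H2BC12, H3C11 and H4C8 lay above wild type (5.73% of all genes did) and H1-3, H1-4, H2BC10 and H4C13 below (2.11%). At an unadjusted p under 0.05 there were 9 members, against 13.2% of all genes.

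The sign of the difference was negative for 45 of the 56 members, with a median of -0.063, against 48.0% negative and a median of 0.0049 over all genes. Among the 28 members above the median gene, 20 were negative and the median was -0.13, while all genes above the median gene had a median of 0.059. By type, the medians of the members above the median gene were -0.28 for H1, -0.15 for H2A, -0.035 for H2B, -0.32 for H3 and -0.29 for H4. The ribosomal protein genes, measured as a check on the amplified RNA, were mostly negative too: 31 of 32 were, with a median of -0.45, and RPL11 passed the test (-0.78, SE 0.16, adjusted p = 0.037). The hepatocyte markers were negative in 7 of 7 with a median of -0.47. The part of these broad shifts in the histone values was not tested. No histone gene passed the test as lower here, and the S phase and DNA replication genes described below had a median of -0.0088. If histone mRNA did fall, fewer cells in S phase and less of it per cell could not be told apart in a bulk sample.

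The second, HIF-2α knockdown against wild type, uses the same wild type arrays and asks this of HIF-2α. No histone gene passed limma's test, against 0.788% of all genes, and the differences ran from -0.36 (H2BC12) to 0.62 (H2BC3). At an unadjusted p under 0.05 there were 9 of 56 members, against 12% of all genes. The groups did not overlap for 4 members (7.14%, against 5.31% of all genes): H2AC14 lay above wild type (3.4% of all genes did) and H2AC12, H2BC11 and H2BC12 below (1.91%). The difference was positive for 34 members with a median of 0.037, and for 20 of the 28 above the median gene with a median of 0.13, against 0.037 over all genes above it. The count and the median of all 56 depended on single arrays: without wild type replicate 2 there were 29 positive with a median of 0.0026, and without HIF-2α knockdown replicate 1 there were 38 with a median of 0.072. The median was 0.057 without wild type replicate 1, 0.069 without wild type replicate 3 and 0.0096 without HIF-2α knockdown replicate 4, and 0.0017 without the raised-floor arrays. By type, the medians of the members above the median gene were 0.13 for H1, 0.065 for H2A, 0.12 for H2B, 0.0030 for H3 and 0.26 for H4. All 5 of these H4 genes were positive, but without wild type replicate 2 H4C3 was at -0.0054 and H4C5 at -0.049. A separate probe set shared by H4C14 and H4C15 was at -0.039. The ribosomal protein genes had the other sign, 23 of 32 negative with a median of -0.086, as did the hepatocyte markers, 7 of 7 negative with a median of -0.14. Their part in the histone values was not tested.

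The knockdowns were also compared with each other, using the same arrays as both comparisons above. H2BC12 was lower by 1.54 on the log2 scale in the HIF-2α knockdown than in the HIF-1α knockdown, and H2BC3 and H2BC10 were higher. These 3 of 56 members (5.36%) stand against 2.77% of all genes, 0.967% higher and 1.8% lower. The groups did not overlap for 8 members (14.3%, against 9.08% of all genes): H2AC14, H2AC15, H2BC3, H2BC10, H3C12 and H4C5 lay higher in the HIF-2α knockdown (3.73% of all genes did) and H2AC12 and H2BC12 lower (5.35%). At an unadjusted p under 0.05 there were 19 of 56 members, or 33.9%, against 13.6% of all genes.

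In this comparison 41 of 56 members were positive, with a median of 0.11, while 55.3% of all genes were negative with a median of -0.012. Without HIF-2α knockdown replicate 3 the histone median was 0.069, and without replicate 1 of that group it was 0.16. Of the 28 members above the median gene 24 were positive, with a median of 0.25, against -0.024 over all genes above it. By type these medians were 0.42 for H1, 0.32 for H2A, 0.16 for H2B, 0.32 for H3 and 0.48 for H4. The ribosomal protein genes were positive in 32 of 32 with a median of 0.35, and RPL11 was higher in the HIF-2α knockdown (0.76, SE 0.16, adjusted p = 0.021). The hepatocyte markers were positive in 6 of 7 with a median of 0.37. Their part in the histone values was not tested. The count of histone genes that passed depended on single arrays. Without HIF-2α knockdown replicate 1 it was 7, with H2AC4, H2AC20, H2BC3, H2BC10, H4C2 and H4C4 higher and H2BC12 lower. Without HIF-1α knockdown replicate 2, 3 or 4, or HIF-2α knockdown replicate 2, 3 or 4, it was 1.

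**Figure D2:**
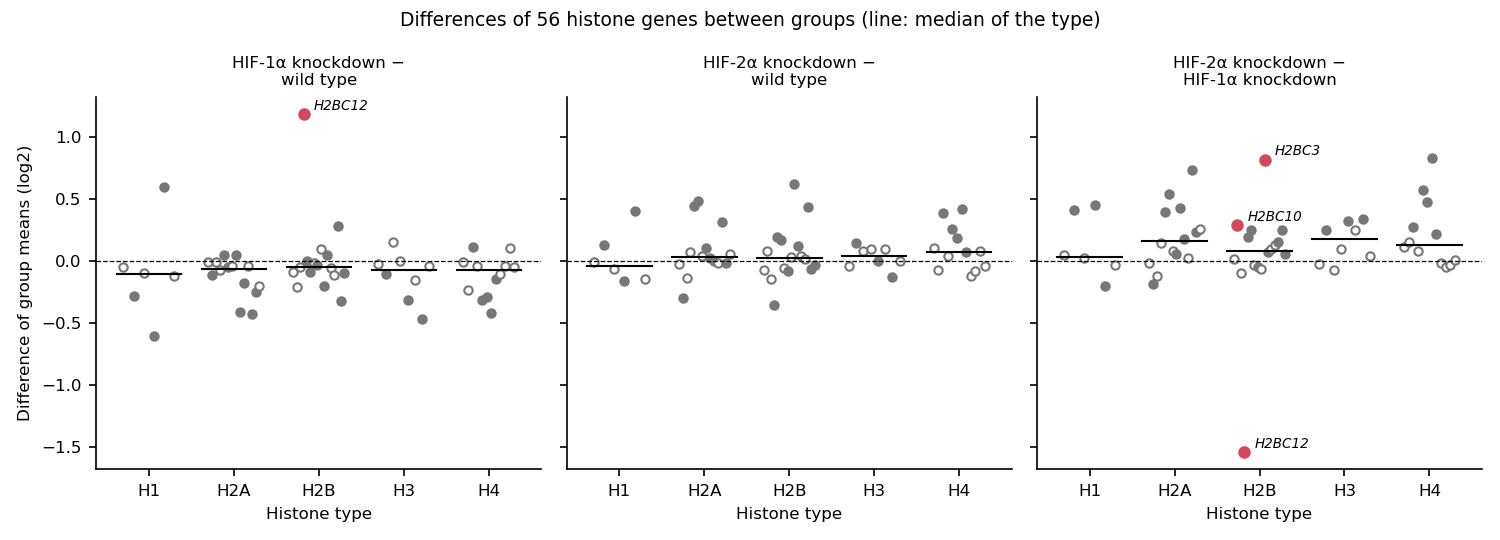
Difference of group means (log2) for each of the 56 histone genes by type in the 3 comparisons. Filled points lie above the median gene, open points at or below it, red points passed limma's test at an adjusted p below 0.05 and lines are type medians. H2BC12 stands at 1.19 in HIF-1α knockdown minus wild type and at -1.54 in HIF-2α minus HIF-1α knockdown.

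The arrays of a group differed from one another in most histone genes at once. In wild type, replicate 2 was the lowest of its group for 24 of the 28 members above the median gene (85.7%), against 49.2% of all genes above it. In the HIF-2α knockdown, replicate 1 was the lowest for 22 of 28 (78.6%), against 20%. In the HIF-1α knockdown, replicate 4 was lowest for 14 (50%, against 34.6% of all genes above the median gene) and replicate 2 for 11 (39.3%, against 23.9%). The mean over these 28 members was 9.93, 9.49, 10.08 and 9.89 on the 4 wild type arrays. It was 9.78, 9.67, 9.90 and 9.65 in the HIF-1α knockdown and 9.70, 10.15, 10.09 and 9.99 in the HIF-2α knockdown. Wild type replicate 2 lay below every HIF-1α knockdown array, and HIF-2α knockdown replicate 1 lay within the range of that group.

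**Figure D3:**
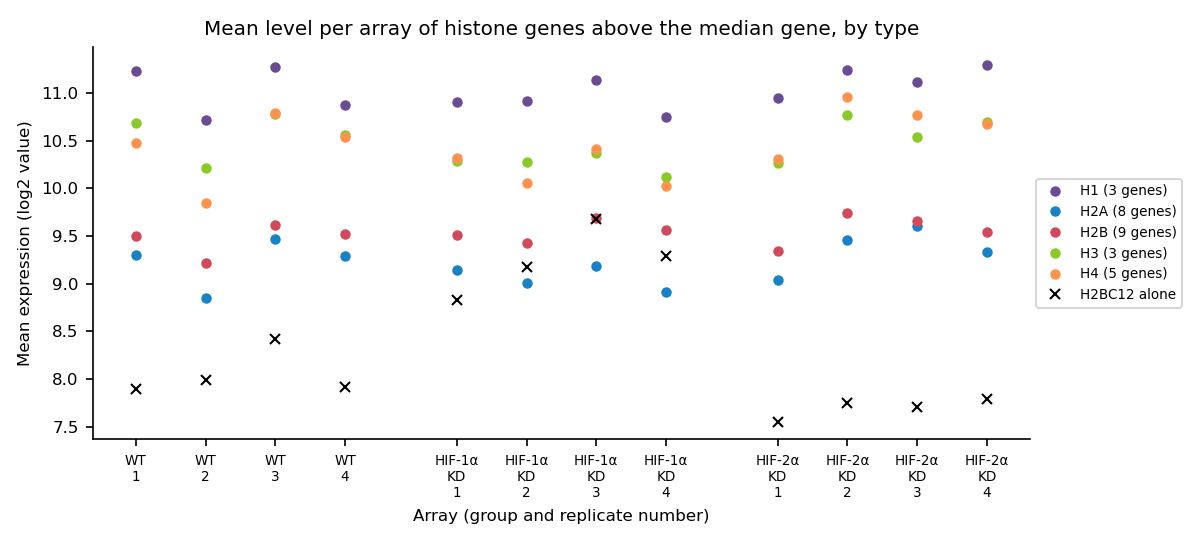
Mean log2 expression on each of the 12 arrays over the histone genes above the median gene, by type, with H2BC12 alone as crosses. Wild type replicate 2 and HIF-2α knockdown replicate 1 are low within their groups in all 5 types, while H2BC12 spans 8.82 to 9.67 in the HIF-1α knockdown and 7.55 to 8.42 elsewhere.

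Among the linker histones, H1-4 had the brightest probe set of all members. It read 14.15, 13.84, 14.06 and 13.60 on the wild type arrays. It read 13.26, 13.26, 13.56 and 13.14 in the HIF-1α knockdown and 13.36, 14.06, 13.38 and 14.21 in the HIF-2α knockdown. Every HIF-1α knockdown array lay below every wild type array, and the HIF-2α knockdown split into a low and a high pair. The HIF-1α knockdown minus wild type difference was -0.61 (SE 0.19) and did not pass limma's test (adjusted p = 0.14). It was 0.00070 after quantile normalization of the arrays, and in a fit of these 2 groups alone its adjusted p was 0.035. Over all settings tried the adjusted p ran from 0.035 to 0.997.

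H1-5, chosen after its values were seen, went the other way. It read 8.72, 8.25, 8.99 and 8.39 in wild type, 9.22, 9.18, 9.38 and 8.97 in the HIF-1α knockdown, and 9.18, 8.73, 9.23 and 8.81 in the HIF-2α knockdown. The wild type array with the highest value reached just above the lowest HIF-1α knockdown array. The difference from wild type was 0.60 (SE 0.16, adjusted p = 0.092) in the HIF-1α knockdown and 0.40 (adjusted p = 0.31) in the HIF-2α knockdown. Without wild type replicate 3 the first was 0.73 with an adjusted p of 0.022. With the replicate numbers fitted as a block, limma's adjusted p was 0.0062 for the first and 0.043 for the second. Whether these numbers pair the arrays is not settled, as described at the end. H1-2, a main somatic linker histone that is also known to give polyadenylated mRNA, read 10.81, 10.05, 10.78 and 10.64 in wild type and 10.15 to 10.46 in the HIF-1α knockdown, which overlapped. In the HIF-2α knockdown it read 10.30, 10.94, 10.72 and 10.86, with a difference of 0.42 from the HIF-1α knockdown (SE 0.16, adjusted p = 0.26). H1-3, below the median gene, did not overlap between wild type (7.2066 to 7.38) and HIF-1α knockdown (7.14 to 7.2061), but by a narrow margin. The difference of means was -0.095 (adjusted p = 0.45). H1-1 and H1-6 lay at group means of 6.64 to 6.87 and differed by at most 0.15 in size.

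Of the 14 H2A genes none passed limma's test in a comparison. In HIF-1α knockdown against wild type, 0 had an unadjusted p under 0.05 (all genes: 13.2%). The count was 4 in HIF-2α knockdown against wild type (all genes: 12%) and 6 in HIF-2α against HIF-1α knockdown (all genes: 13.6%). H2AC14 read 7.88, 7.45, 7.92 and 7.83 in wild type, 8.03, 7.88, 7.81 and 7.55 in the HIF-1α knockdown, and 8.20, 8.04, 8.45 and 8.17 in the HIF-2α knockdown. All 4 HIF-2α knockdown arrays lay above all 8 others, the lowest (8.044) just above the highest HIF-1α knockdown array (8.034). The group mean was higher by 0.45 than in wild type (SE 0.12, adjusted p = 0.115) and by 0.40 than in the HIF-1α knockdown (adjusted p = 0.115). H2AC15 read 9.24, 9.65, 9.91 and 9.26 in the HIF-2α knockdown, above the 8.69 to 9.18 of the HIF-1α knockdown (0.54, SE 0.16, adjusted p = 0.12). Wild type, at 8.97, 8.68, 9.32 and 9.12, overlapped it.

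The brightest H2A probe sets, H2AC21 and H2AC20, overlapped between all groups. H2AC21 had means of 11.15 ± 0.39, 10.97 ± 0.30 and 11.15 ± 0.28 (SD) in wild type, the HIF-1α and the HIF-2α knockdown. H2AC20 read 9.80, 10.74, 10.88 and 10.75 in the HIF-2α knockdown and 9.96 to 10.31 in the HIF-1α knockdown. That 1 low array decided its place: with all arrays the difference was 0.43 (SE 0.21, adjusted p = 0.41), and without HIF-2α knockdown replicate 1 it was 0.68 (adjusted p = 0.028). H2AC4, chosen after its values were seen, had the same low array, with 9.75, 10.80, 10.91 and 10.38 in the HIF-2α knockdown and 9.63 to 9.88 in the HIF-1α knockdown. Its difference was 0.74 (SE 0.245, adjusted p = 0.156), and 0.97 (adjusted p = 0.026) without that array. H2AC11, also chosen after its values were seen, was lower in the HIF-2α knockdown (7.68 to 7.96) than in wild type (7.94 to 8.24), with a slight overlap and a difference of -0.30 (SE 0.078, adjusted p = 0.10). After quantile normalization it was -0.33 (adjusted p = 0.042). The dim H2AC12 lay at 6.70 to 6.78 in the HIF-2α knockdown, below the 6.80 to 6.99 of the other groups (-0.13 from wild type, adjusted p = 0.34).

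H2BC12 encodes a core H2B protein and was the member with the clearest difference. It read 7.90, 7.99, 8.42 and 7.92 in wild type. It read 8.82, 9.18, 9.67 and 9.29 in the HIF-1α knockdown and 7.55, 7.74, 7.70 and 7.79 in the HIF-2α knockdown. The groups did not overlap in any comparison: the HIF-1α knockdown arrays were highest and the HIF-2α knockdown arrays lowest. HIF-1α knockdown exceeded wild type by 1.19 (SE 0.15, adjusted p = 0.0030), or 2.27-fold. HIF-2α knockdown lay 1.54 below HIF-1α knockdown (log2 difference -1.54, SE 0.15, adjusted p = 0.00012), or 2.91-fold. Against wild type the HIF-2α knockdown difference was -0.36 and did not pass (adjusted p = 0.36).

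The rise over wild type passed in 15 of the 16 other settings, with values of 1.04 to 1.32. The exception was the fit without the 3 raised-floor arrays, which left 2 wild type arrays: H2BC12 then differed by 1.07 (adjusted p = 0.13). The difference between the knockdowns passed in 16 of 16, with values of -1.68 to -1.40 and adjusted p of 1.3e-05 to 0.0079. These settings are not all separate checks. The array that stands apart is HIF-2α knockdown replicate 2, so between the knockdowns its removal counts under both headings. Averaging the probe sets of a gene left the histone values unchanged, as no member had several. The same holds for the counts given for H2BC3 and H2BC10 below. A separate probe set shared by H2BC12, H2BC12L, H2BC17 and H2BC5 had group means of 9.80 in wild type, 9.94 in the HIF-1α knockdown and 9.59 in the HIF-2α knockdown. Its differences, 0.14 (adjusted p = 0.76), -0.21 (adjusted p = 0.72) and -0.35 (adjusted p = 0.38), had the signs of H2BC12 and did not pass.

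**Figure D4:**
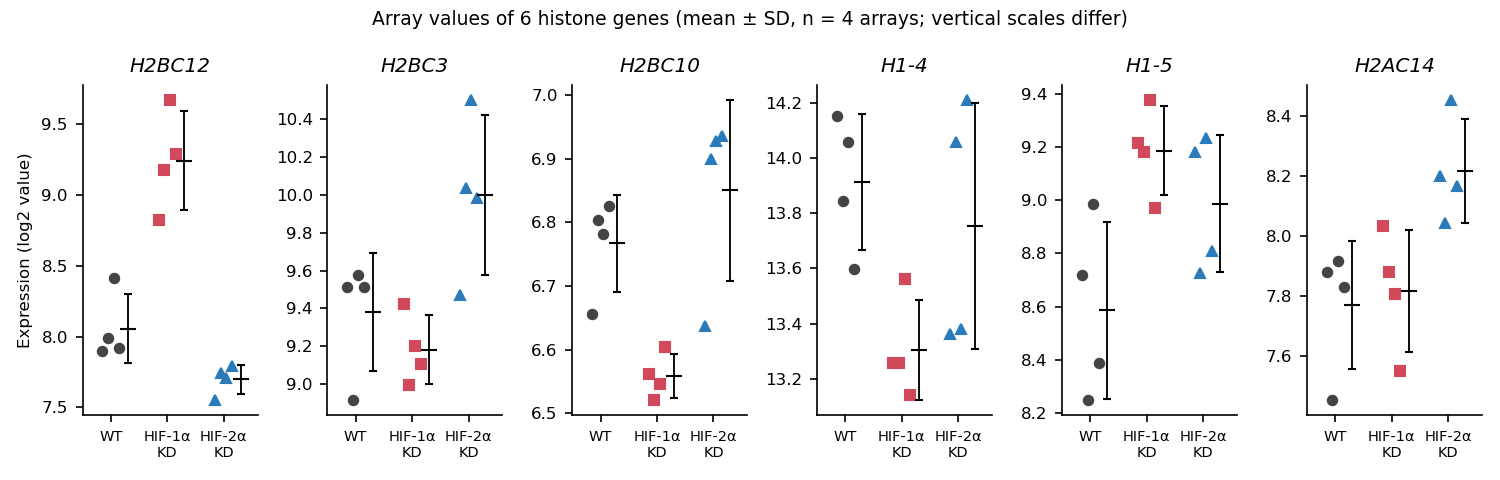
Log2 values of 6 histone genes on each array by group, with mean ± SD (n = 4) beside the points. The vertical scales differ. The HIF-1α knockdown arrays lie above both other groups for H2BC12 (8.82 to 9.67) and below both for the dim H2BC10 (6.52 to 6.60).

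The neighbours of H2BC12 on chromosome 6, in RefSeq order, were read for the same differences. The nearest on either side are histone genes: H2BC11 and H2AC11 before it, and H4C9 and H2AC12 after it. Their differences in HIF-1α knockdown against wild type were -0.049, -0.12, -0.045 and -0.011, with adjusted p of 0.61 to 0.96. The nearest measured gene beyond them on one side, ZNF322, encoding a zinc finger protein, was higher in the HIF-1α knockdown (0.55, adjusted p = 0.016). ABT1, PRSS16 and POM121L2 differed by 0.12, -0.018 and -0.075, with adjusted p of 0.61 to 0.93. In HIF-2α against HIF-1α knockdown, none of these 8 neighbours passed limma's test (adjusted p of 0.18 to 0.98).

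H2BC12 is 1 of 6 members known to give polyadenylated mRNA, with H1-2, H2AC6, H2BC4, H2BC5 and H2BC21. The other 5 passed no test. H2BC4 lay at 8.78 to 9.04 in wild type, 8.86 to 9.09 in the HIF-1α knockdown and 8.88 to 9.34 in the HIF-2α knockdown. H2BC21 had means of 8.35 ± 0.12, 8.32 ± 0.067 and 8.27 ± 0.20 (SD) in that order. A separate, brighter probe set shared by H2BC21, H2BC19P and H2BC20P had means of 12.71, 12.37 and 12.64 in that order. Its HIF-1α knockdown differed by -0.34 from wild type (adjusted p = 0.26, limma). Its HIF-2α knockdown differed by -0.076 from wild type (adjusted p = 0.92) and by 0.27 from the HIF-1α knockdown (adjusted p = 0.44). H2BC5, below the median gene, had means of 7.37 ± 0.17, 7.32 ± 0.063 and 7.41 ± 0.19. H2AC6 read 9.02 to 9.17 in the HIF-1α knockdown and 9.06 to 9.60 in wild type, a difference of -0.25 (SE 0.12, adjusted p = 0.38). The mean of the 5 was 8.92 ± 0.16 in wild type, 8.80 ± 0.068 in the HIF-1α knockdown and 8.96 ± 0.19 in the HIF-2α knockdown, without the pattern of H2BC12.

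**Figure D5:**
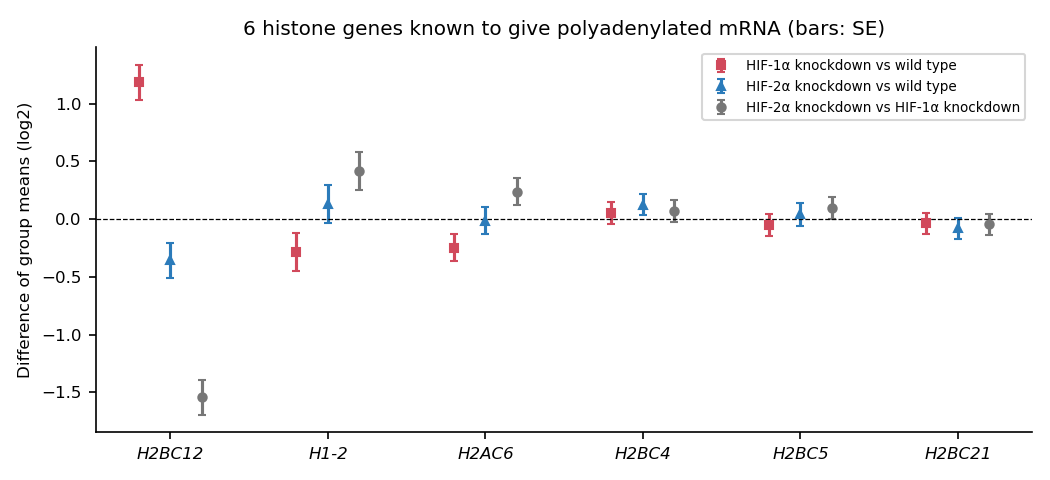
Difference of group means (log2, with SE bars) in the 3 comparisons for the 6 histone genes known to give polyadenylated mRNA. H2BC12 stands at 1.19, -0.36 and -1.54, and the other 5 lie between -0.28 and 0.42.

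H2BC3 read 9.51, 8.92, 9.58 and 9.52 in wild type, 9.42, 8.99, 9.20 and 9.10 in the HIF-1α knockdown, and 9.47, 10.04, 10.51 and 9.99 in the HIF-2α knockdown. The HIF-2α knockdown arrays lay above every HIF-1α knockdown array, the lowest by a narrow margin, and 1 of them lay below 3 wild type arrays. The difference between the knockdowns was 0.82 (SE 0.19, adjusted p = 0.036), or 1.76-fold, and the difference from wild type was 0.62 (adjusted p = 0.17). The call held in 6 of 16 other settings, with values of 0.65 to 1.00. Without HIF-1α knockdown replicate 2, 3 or 4 the adjusted p was 0.11, 0.10 and 0.092, and without HIF-2α knockdown replicate 2, 3 or 4 it was 0.077, 0.079 and 0.095.

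H2BC10, a dim probe set below the median gene, read 6.66, 6.80, 6.78 and 6.83 in wild type, 6.56, 6.52, 6.55 and 6.60 in the HIF-1α knockdown, and 6.64, 6.90, 6.93 and 6.94 in the HIF-2α knockdown. The HIF-1α knockdown arrays were the lowest of all 12. The difference between the knockdowns was 0.29 (SE 0.068, adjusted p = 0.037), or 1.22-fold, and it held in 3 of 15 other settings. Leaving out any 1 of the 8 arrays compared, other than HIF-2α knockdown replicate 1, ended the call, with adjusted p of 0.074 to 0.12. Against wild type the HIF-1α knockdown difference was -0.21 (adjusted p = 0.17) and the HIF-2α knockdown difference 0.083 (adjusted p = 0.71).

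The other H2B genes did not pass a test. H2BC14 read 12.78, 12.73, 13.03 and 12.96 in wild type, 12.72, 12.71, 12.93 and 12.80 in the HIF-1α knockdown, and 12.93, 13.45, 12.87 and 12.93 in the HIF-2α knockdown, where 1 array stood above the rest. Its HIF-1α knockdown difference from wild type was -0.086 (adjusted p = 0.82) and turned to 0.26 (adjusted p = 0.27) after quantile normalization. H2BC9 had means of 10.86, 10.77 and 10.83 in the 3 groups and overlapped throughout. H2BC11, below the median gene, lay at 6.81 to 6.89 in the HIF-2α knockdown, under the 6.89 to 7.08 of wild type (-0.15, adjusted p = 0.32). The testis gene H2BC1 stayed between 6.53 and 6.73 on all arrays.

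Many H2A and H2B genes lie head to head. Among the members, 10 pairs on opposite strands have start sites 215 to 979 bases apart, and in 4 pairs both genes lie above the median gene. The 5 members without a window, among them H2AC12, a neighbour of H2BC12, are in none of these pairs. The count may thus be incomplete. The start sites of H2AC14 and H2BC14 are 245 bases apart, and their differences in HIF-2α against HIF-1α knockdown were 0.40 and 0.26. H2BC21 and H2AC20 (236 bases apart) differed by -0.046 and 0.43, and H2BC4 and H2AC6 (246 bases apart) by 0.071 and 0.24. H3C7 and H2BC9 (979 bases apart) differed by 0.34 and 0.061. The signs of a pair were alike in 3 of 4 pairs here, and in 2 of 4 in each comparison with wild type.

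Of the 8 H3 genes, H3C2 was bright and H3C10 and H3C7 lay above the median gene. H3C2 read 13.03, 12.48, 13.00 and 12.70 in wild type, 12.43, 12.45, 12.66 and 12.38 in the HIF-1α knockdown, and 12.44, 13.02, 12.70 and 13.05 in the HIF-2α knockdown. The groups overlapped, with a difference of -0.32 (SE 0.14, adjusted p = 0.35) in HIF-1α knockdown against wild type. After quantile normalization that difference was -0.011. H3C7, chosen after its values were seen, read 9.51, 9.08, 9.65 and 9.60 in wild type and 9.10, 9.02, 9.03 and 8.83 in the HIF-1α knockdown. Only wild type replicate 2 fell among the knockdown values. The difference was -0.47 (SE 0.12, adjusted p = 0.091), and without that array it was -0.59 (adjusted p = 0.026).

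H3C10 had means of 9.42 ± 0.27, 9.32 ± 0.12 and 9.57 ± 0.24 (SD) in wild type, the HIF-1α and the HIF-2α knockdown. Of the dim H3 genes, H3C11 lay higher in the HIF-1α knockdown (7.24 to 7.33) than in wild type (6.97 to 7.23), by 0.15 (adjusted p = 0.35). H3C12 read 6.95 to 7.11 in the HIF-2α knockdown against 6.88 to 6.94 in the HIF-1α knockdown (0.10, adjusted p = 0.495). H3C8 stayed between 6.73 and 6.95 on all arrays. No H3 gene passed limma's test in the 3 comparisons, and 3, 0 and 3 of 8 had an unadjusted p under 0.05. The shares of all genes were 13.2%, 12% and 13.6%.

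The H4 genes are known to encode the same protein, apart from the divergent H4C7. H4C3, the brightest probe set, read 12.32, 11.68, 12.73 and 12.30 in wild type, 12.07, 11.86, 12.28 and 11.66 in the HIF-1α knockdown, and 12.06, 12.76, 12.33 and 12.64 in the HIF-2α knockdown. The groups overlapped, and the knockdowns differed by 0.48 (SE 0.20, adjusted p = 0.31). H4C14 had means of 10.87 ± 0.50, 10.99 ± 0.38 and 11.27 ± 0.25 (SD) in wild type, the HIF-1α and the HIF-2α knockdown. Its knockdowns differed by 0.28 (adjusted p = 0.74). A separate, dimmer probe set shared by H4C14 and H4C15 had means of 7.89, 8.11 and 7.85 in that order. There the knockdowns differed the other way, by -0.26 (adjusted p = 0.22). H4C5 read 10.70 to 10.85 in the HIF-2α knockdown, just above the 10.47 to 10.64 of the HIF-1α knockdown, by 0.22 (SE 0.11, adjusted p = 0.42). Wild type spanned both, from 10.33 to 10.97.

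H4C4 and H4C2, chosen after their values were seen, had larger differences. H4C4 read 8.65, 7.99, 8.99 and 9.04 in wild type, 8.38, 8.22, 8.35 and 8.05 in the HIF-1α knockdown, and 8.37, 9.64, 9.30 and 9.02 in the HIF-2α knockdown. The first HIF-2α knockdown array lay within the HIF-1α knockdown range and the other 3 above it. The knockdowns differed by 0.83 (SE 0.25, adjusted p = 0.11), and by 1.07 (adjusted p = 0.020) without that array. For H4C2 the difference was 0.58 (SE 0.17, adjusted p = 0.12), and 0.71 (adjusted p = 0.036) without that array. The dim H4C13 lay at 6.52 to 6.68 in the HIF-1α knockdown, below the 6.72 to 6.95 of wild type (-0.23, adjusted p = 0.13), and H4C8 at 7.56 to 7.57, above the 7.26 to 7.54 of wild type (0.11, adjusted p = 0.62). No H4 gene passed in the 3 comparisons, and 1, 0 and 4 of 12 had an unadjusted p under 0.05. The shares of all genes were 13.2%, 12% and 13.6%.

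Genes of the same naming that share probe sets were tested in a fit of all 32321 probe sets. None of the 17 shared probe sets passed in a comparison (smallest adjusted p of 0.25, 0.55 and 0.22), against 0.529%, 0.43% and 1.31% of all probe sets. At an unadjusted p under 0.05 there were 3, 0 and 4 of 17. In the fit over genes the shares of all genes were 13.2%, 12% and 13.6%. The 17 sets cover H2AC7, H2AC18, H2AC19, H2BC15, H2BC18, H3C4, H3C6, H3C13, H3C14, H3C15, H4C11, H4C12 and H4C15. Some also include members with a set of their own, such as H2BC12 and H2BC21. The set shared by H3C4 and H2AC7 had means of 12.78 in wild type, 12.37 in the HIF-1α knockdown and 12.77 in the HIF-2α knockdown, with differences of -0.40 (adjusted p = 0.25) and 0.40 (adjusted p = 0.28) around the HIF-1α knockdown. Some of these sets join genes of different histone types, and a shared value cannot be given to 1 gene.

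The genes that make and process histone mRNA were read as a companion list. Of 18 listed, 16 were measured and none passed limma's test. The medians were 0.10 in HIF-1α knockdown against wild type, 0.13 in HIF-2α knockdown against wild type and 0.047 between the knockdowns. In the same order, 2, 2 and 0 had an unadjusted p under 0.05, as did 13.2%, 12% and 13.6% of all genes. SLBP, the stem-loop binding protein, had means of 9.52, 9.70 and 9.79 in wild type, the HIF-1α and the HIF-2α knockdown (0.27 in HIF-2α knockdown against wild type, adjusted p = 0.18). CSTF2, a subunit of the cleavage machinery, differed by 0.31 in HIF-1α knockdown against wild type (adjusted p = 0.083). ZNF473, a protein of the U7-dependent processing complex, differed by 0.19 (adjusted p = 0.30).

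Of the replication-independent histone variants, which are made outside S phase as well, 9 of 12 were measured and none passed. Their medians were 0.035, 0.031 and -0.056 in the same order. In that order, 1, 1 and 0 had an unadjusted p under 0.05, as did 13.2%, 12% and 13.6% of all genes. MACROH2A2, H2AZ2 and H3-3B differed by at most 0.25 in size. Of the 22 histone chaperones, all measured, NASP passed in 1 comparison. NASP, which binds and protects free histones, read 9.17, 9.25, 9.32 and 9.46 in the HIF-1α knockdown and 9.63, 10.08, 9.77 and 10.02 in the HIF-2α knockdown. Wild type read 9.65, 9.60, 9.54 and 9.61, above the HIF-1α knockdown and overlapping the lowest HIF-2α knockdown array. The knockdowns differed by 0.58 (SE 0.092, adjusted p = 0.0042) without overlap. The chaperone ASF1A differed by 0.42 in HIF-1α knockdown against wild type (adjusted p = 0.092) and ANP32E by 0.37 in HIF-2α knockdown against wild type (adjusted p = 0.097).

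Of 36 genes of S phase and DNA replication, 35 were measured and none passed limma's test in the 3 comparisons. At an unadjusted p under 0.05 were 3, 8 and 9 of 35, and 13.2%, 12% and 13.6% of all genes. The median difference of the list was -0.0088 in HIF-1α knockdown against wild type, with 16 of 35 positive. It was 0.10 in HIF-2α knockdown against wild type and 0.14 between the knockdowns, with 29 of 35 positive in each. ORC1, a subunit of the origin recognition complex, differed by 0.37 between the knockdowns (SE 0.094, adjusted p = 0.054), RFC5, a clamp loader subunit, by 0.26 (adjusted p = 0.11) and MCM6, a helicase subunit, by 0.32 (adjusted p = 0.12). The mean of the list was 9.73 ± 0.096, 9.71 ± 0.033 and 9.84 ± 0.13 (SD) in wild type, the HIF-1α and the HIF-2α knockdown. The HIF-1α knockdown arrays lay at 9.67 to 9.75, and the HIF-2α knockdown arrays read 9.78, 10.03, 9.78 and 9.76. The knockdowns did not overlap, but by a narrow margin, with 9.752 as the highest HIF-1α and 9.757 as the lowest HIF-2α knockdown array. The value of 10.03 came from HIF-2α knockdown replicate 2, whose principal component value was 25.3. Wild type, at 9.60 to 9.84, overlapped both knockdowns. The replication and histone lists both had positive medians between the knockdowns, and whether the one bears on the other was not tested.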

How the data were processed

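The analysis started from the log2 values the authors deposited for 32321 probe sets on 12 arrays. How they were background corrected, summarized and normalized is not given in the sources used here, and base 2 was inferred from their range, 5.93 to 15.05. Of the probe sets, 19158 had 1 symbol, 1388 several and 11775 none. Symbols were checked through Entrez identifiers in a RefSeq table (GRCh38.p14), of which 19128 matched and 0 were renamed. For 637 genes with over 1 probe set the brightest was used. Each of the 56 histone genes had 1.

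Group differences were fitted in R 4.3.3 with limma 3.58.1 (lmFit with 1 mean per group over all 12 arrays, then eBayes), with Benjamini-Hochberg adjustment over 18404 genes and a threshold of 0.05. SE is limma's. A p-value here reflects the spread among these arrays alone, and their number limits the precision. The script was tested on simulated data. Lists are described by counts and medians.

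The histone genes and all lists were chosen with earlier results of these data known. Genes were named by rule: HIF1A and EPAS1, histone genes that passed, up to 6 per comparison whose groups do not overlap, the 2 brightest and the dimmest of each type, the polyadenylated list, and from each companion list the genes that passed and up to 3 more by smallest p. Exceptions are marked as chosen after their values were seen. Promoter windows came from RefSeq (GRCh38.p14). Other normalizations, filters, fits and left-out arrays were tried, as given at the end. Macrophage markers CD68 and LYZ, which other cells also express, had means of 10.02 and 13.19.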

Additional observations from a re-analysis of the deposited data

Results flagged for a closer look

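In 7 of 138 groups of 4 arrays tested (46 genes and type means in 3 groups), the highest or lowest array stood apart from the other 3 by Dixon's criterion. Chance alone marks about 1 in 20 groups. In the HIF-2α knockdown, replicate 1 was low for H2AC20 (9.80 against 10.74 to 10.88), for H2BC10 (6.64 against 6.90 to 6.94) and for the mean of the H3 genes (8.29 against 8.48 to 8.50). Also in that group, H2AC21 was high on replicate 3 (11.57 against 10.99 to 11.04) and H2BC14 was high on replicate 2 (13.45 against 12.87 to 12.93). In wild type, replicate 2 was low for H2BC3 (8.92 against 9.51 to 9.58) and for H4C8 (7.26 against 7.51 to 7.54). H2BC12 was not among them.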

How the results depend on the processing

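The medians over all 56 histone genes kept their sign under every setting tried, but not their size. With a single array left out they ran from -0.0845 to -0.0538 in HIF-1α knockdown against wild type, from 0.0026 to 0.0725 in HIF-2α knockdown against wild type (0.0017 without the raised-floor arrays) and from 0.0692 to 0.1597 between the knockdowns. In HIF-1α knockdown against wild type the median was -0.0437 after quantile normalization and -0.082 with each array centred on its median. In HIF-2α knockdown against wild type these were 0.0456 and 0.039. With the 28 genes above the median gene alone, the median in HIF-2α against HIF-1α knockdown was 0.255. The number of histone genes that passed in HIF-1α knockdown against wild type was 1; it was 2 after quantile normalization (H2BC12 and H3C7), 2 in the fit of the 2 groups compared (H2BC12 and H1-4), 0 without the 3 raised-floor arrays, and 1 to 2 with a single array left out (2 without wild type replicate 2, adding H3C7, or replicate 3, adding H1-5). In HIF-2α knockdown against wild type it was 0, and 1 after quantile normalization (H2AC11), and 0 with any single array left out. In HIF-2α against HIF-1α knockdown it was 3, and 3 after quantile normalization with H4C2 in place of H2BC10. It was 1 with each array centred on its median, 1 in the fit of the 2 groups compared, 1 without the raised-floor arrays, 1 without the array that stands apart, and 1 to 7 with a single array left out.

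Over all genes, the 177 that passed in HIF-1α knockdown against wild type (150 higher, 27 lower) became 254 after quantile normalization (140 higher, 114 lower), 85 with centring, 396 in the fit of the 2 groups, 22 without the raised-floor arrays (8 higher, 14 lower) and 50 to 483 with an array left out. The 145 in HIF-2α knockdown against wild type (88 higher, 57 lower) became 404 after quantile normalization (141 higher, 263 lower), 72 with centring (34 higher, 38 lower), 64 in the fit of the 2 groups, 37 without the raised-floor arrays and 61 to 219. The 509 between the knockdowns (178 higher, 331 lower) became 888 after quantile normalization, 337 with centring, 259 without the raised-floor arrays and 211 to 618. The cause of these changes was not tested. The lowest and highest counts with an array left out came without HIF-1α knockdown replicate 3 (50) and wild type replicate 3 (483), without wild type replicate 4 (61) and replicate 3 (219), and without HIF-1α knockdown replicate 3 (211) and HIF-2α knockdown replicate 1 (618). Of the single-gene values, 76 changed sign without a call, 24 lost a call and 12 gained one.

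The replicate numbers were also fitted as a block. Same-numbered arrays correlated at -0.039 to 0.637 in HIF-1α knockdown and wild type and at -0.171 to -0.027 in HIF-2α knockdown and wild type. Between the knockdowns they correlated at 0.028 to 0.217. In that order, 4, 0 and 1 of 8 arrays correlated best with their own number. In HIF-1α knockdown and wild type, replicates 1, 2 and 3 were at 0.17, 0.306 and 0.637 and replicate 4 at -0.039. Whether the numbers pair the arrays is not settled there, and the other comparisons gave little sign of it. With the block, 2 histone genes passed in HIF-1α knockdown against wild type (H2BC12 and H1-5), 1 in HIF-2α knockdown against wild type (H1-5) and 3 between the knockdowns, and 234, 202 and 562 of all genes.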
